A study of Danio rerio with 6 samples.

Results

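The expression of 10 genes of the microRNA pathway was followed in gonads of juvenile zebrafish. They were chosen by symbol among the 32520 genes of the count tables. The genes are *drosha*, *dgcr8*, *dicer1*, the Argonaute genes *ago1*, *ago2*, *ago3a*, *ago3b* and *ago4*, and *tnrc6a* and *tnrc6b*. All 10 symbols were matched to an Ensembl gene ID and all 10 genes had enough counts to be tested. RNA-seq compared 3 samples of *eif4e1b* mutant gonads with 3 samples of wild-type gonads, and each sample pooled 3 gonads. The mutants were *eif4e1b* -/- fish with a CRISPR/Cas9 frameshift deletion in the third exon, and the wild-type fish were their *eif4e1b* +/+ siblings. Which of the study's deletion lines was sequenced, and the exact age of the fish, are not given in the sources used here. Fish of both genotypes carried *ziwi:GFP*, a transgene in which the *piwil1* promoter drives green fluorescent protein in germ cells, and gonads with high fluorescence were collected. Both groups are labelled as female and as ovary, but by the study's description mutant gonads chosen in this way were either ovaries or gonads with sperm in differentiation.

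MicroRNAs are short RNAs that guide the repression of messenger RNAs. Drosha and its partner Dgcr8, together the Microprocessor, cut a hairpin out of a primary transcript in the nucleus, and Dicer1 trims the hairpin to a short duplex in the cytoplasm. An Argonaute protein keeps a strand of the duplex as its guide, and Tnrc6 proteins (also called GW182 proteins) bind Argonaute and bring in the enzymes that shorten polyA tails. Zebrafish eggs are loaded with Dicer, and in the early embryo the miR-430 family clears maternal messenger RNAs, whereas in mouse oocytes the loss of Dgcr8 is tolerated.

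Libraries held 5539470 to 8233080 counts in mutant samples and 11771342 to 13362230 counts in wild-type samples. *eif4e1b* itself (ENSDARG00000014565) had 55, 9 and 24 counts in mutant replicates 1, 2 and 3, against 1391, 1116 and 1386 counts in wild-type replicates 1, 2 and 3, with a log2 fold change of -4.92 (SE 0.55, adjusted p = 0.000601 by edgeR's quasi-likelihood test). Transcripts of other cells moved with genotype. All 23 tested oocyte markers were lower in mutant gonads, with a summed level of 138 to 760 counts per 1000000 (CPM) in mutant samples and 17413 to 22126 CPM in wild-type samples. Of 10 tested markers of testis somatic cells 9 were higher, with summed levels of 1394 to 2260 CPM in mutant and 274 to 666 CPM in wild-type samples; the mutant samples, labelled as ovary, were thus low in oocyte markers. All 19 exocrine pancreas markers were higher as well, with 45344 to 78554 CPM in mutant samples, against 104 to 437 CPM in wild-type samples. Liver markers summed to 1016 to 175049 CPM in mutant samples and 133 to 3918 CPM in wild-type samples, with the highest value in mutant replicate 2, and 4 of 13 were called higher. Of 19 germ cell markers of either sex 5 were higher and 4 lower, and of 11 markers of spermatids and sperm 6 were higher and 1 lower, with *tssk6* at 0 counts in all wild-type samples. The markers called higher were 3 of 6 for ovarian somatic cells, 11 of 13 for muscle, 5 of 6 for red blood cells, 9 of 13 for skin, 11 of 11 for matrix and 4 of 10 for leukocytes, and 1 muscle marker and 1 skin marker were called lower. Among all tested genes 37.5% were higher and 32.0% lower. The higher calls of liver and leukocyte markers are near that share, and the germ cell markers were called less often in both directions. The share of calls does not give the size of the liver shift. All 13 liver markers had log2 fold changes of 4.83 or more, with a median of 5.45, but their levels differed widely between mutant samples. *h1m*, an oocyte linker histone, had 98.2, 4.19 and 2.53 CPM in mutant replicates 1, 2 and 3, and *gsdf*, a factor of gonadal somatic cells, had 205, 12.7 and 15.7 CPM in wild-type replicates 1, 2 and 3. Wild-type replicate 1 thus stood apart in testis markers, mutant replicate 1 in oocyte markers and mutant replicate 2 in liver markers. Red blood cell markers summed to 133, 22.0 and 24.1 CPM in wild-type replicates 1, 2 and 3, and matrix markers to 399, 128 and 143 CPM. Ovarian somatic markers summed to 27.2, 21.5 and 20.8 CPM in wild-type replicates 1, 2 and 3, and spermatid and sperm markers to 94.6, 48.1 and 57.4 CPM. Wild-type replicate 1 was thus the highest in these lists too, and not in testis markers alone. Leukocyte markers were highest in wild-type replicate 2, and liver and pancreas markers in wild-type replicate 3. Over all genes mutant replicate 2 was the farthest from its group: chi-square per degree of freedom was 149 and 97.9 against mutant replicates 1 and 3, and 29.0 between those samples. The part that these shifts in cell content had in the results below was not tested. In whole gonads, fewer cells of a type and less RNA per cell cannot be told apart.

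Of the 10 genes, 6 fell in mutant gonads, 1 rose and 3 did not pass the test, at an adjusted p under 0.05 (edgeR's quasi-likelihood test, Benjamini-Hochberg correction for the 20091 tested genes). The genotypes differed throughout the transcriptome, where 32.0% of tested genes were lower, 37.5% were higher and 69.5% were called in either direction. The share of these 10 genes that was called is therefore close to that of all genes, and what follows concerns their direction, size and differences. Mutant values lay below all wild-type values for 6 of the 10 genes, against 35.4% of tested genes, and above all of them for 1 gene, against 39.8%. The log2 fold changes of mutant over wild type ran between -2.95 for *ago4* and 0.68 for *dicer1*, with a median of -0.79, whereas the median of all tested genes was 0.23. Counts behind the values were between 77 for *ago1* in mutant replicate 3 and 6949 for *dgcr8* in wild-type replicate 1. In the RefSeq annotation of the assembly GRCz12tu, *dicer1*, *ago1*, *ago2*, *dgcr8* and *tnrc6b* each overlap another gene, which for *dgcr8* is the microRNA gene *mir1306* and for *ago2* the protein-coding *trioa*. How the counting used strand and reads that match several paralogs is not given in the sources used here, so part of these counts may belong to the overlapping or related gene.

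**Figure D1:**
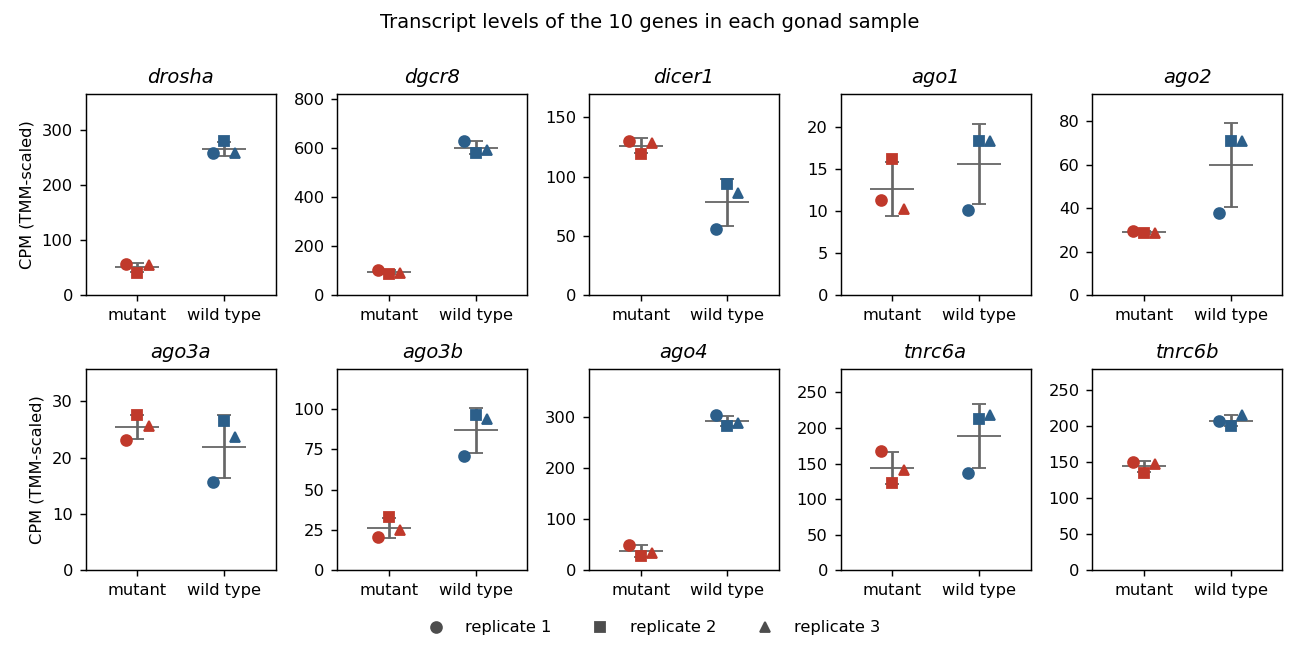
Transcript level of each of the 10 genes in every sample, in TMM-scaled CPM on axes that start at 0. Red symbols are the 3 mutant samples, blue symbols the 3 wild-type samples, and grey lines the mean with the SD; *drosha*, *dgcr8*, *ago4* and *ago3b* separate widely, and for 6 genes wild-type replicate 1 (circle) is at 0.53 to 0.75 times the mean of the other wild-type samples.

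The Microprocessor genes fell together. *drosha* (ENSDARG00000055563), which encodes the nuclear ribonuclease that cuts primary transcripts, had 56.6, 41.4 and 55.4 CPM in mutant replicates 1, 2 and 3, against 258, 281 and 259 CPM in wild-type replicates 1, 2 and 3. The genotypes did not overlap, and the highest mutant value was far below the lowest wild-type value. The mean was 51.1 ± 8.42 CPM in mutant gonads and 266 ± 13.1 CPM in wild-type gonads (SD, n = 3 each), so the mutant mean was 19.2% of the wild-type mean. The log2 fold change was -2.38 (SE 0.21, adjusted p = 0.000347 by edgeR's quasi-likelihood test).

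*dgcr8* (ENSDARG00000035564) encodes the RNA-binding partner that places Drosha on the hairpin. It had 103, 87.7 and 91.9 CPM in mutant samples, against 631, 580 and 593 CPM in wild-type samples. Here too no mutant value reached the wild-type range. The mutant mean was 94.2 ± 7.90 CPM and the wild-type mean 601 ± 26.5 CPM (SD, n = 3 each), with a log2 fold change of -2.67 (SE 0.23, adjusted p = 0.000322 by edgeR's quasi-likelihood test). Both Microprocessor genes stayed past the threshold under every alternative tried, 17 for each.

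*dicer1* (ENSDARG00000001129), which encodes the ribonuclease of the next step, did not follow them. It had 130, 119 and 128 CPM in mutant samples, against 55.9, 93.4 and 85.9 CPM in wild-type samples. All mutant values were above all wild-type values, and the lowest wild-type value was that of replicate 1. Means were 126 ± 6.23 CPM in mutant gonads and 78.4 ± 19.8 CPM in wild-type gonads (SD, n = 3 each), a log2 fold change of 0.68 (SE 0.23, adjusted p = 0.0341 by edgeR's quasi-likelihood test) or 0.45 above the median of all genes. This call was weak: it was lost in 12 of 17 alternatives, among them the removal of any of the 6 samples, where the log2 fold change ran between 0.45 without wild-type replicate 1 and 0.77 without wild-type replicate 2 and the adjusted p by edgeR's quasi-likelihood test between 0.0537 and 0.218.

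**Figure D2:**
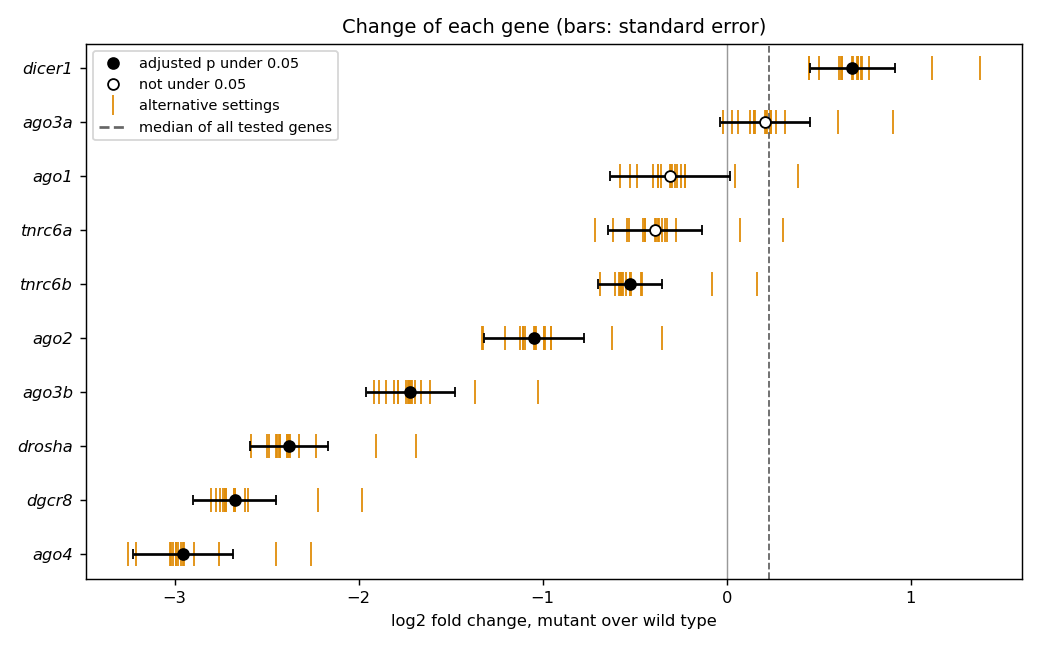
Log2 fold change of mutant over wild type for each gene (circles, with bars for the standard error), ordered by size, with the values under the alternative settings as orange ticks and the median of all tested genes as a dashed line. Filled circles are past the threshold: *dicer1* at 0.68 is the only one to the right of 0, and *ago4* at -2.95 is the farthest to the left.

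The log2 fold changes of the 5 Argonaute genes ran between -2.95 for *ago4* and 0.21 for *ago3a*. Of these genes 3 fell and 2 did not pass the test, where 32.0% of all tested genes were lower and 69.5% were called. *ago4* (ENSDARG00000100854) had 50.4, 28.5 and 34.0 CPM in mutant samples, against 303, 283 and 289 CPM in wild-type samples. The highest mutant value was that of replicate 1, far under every wild-type value. Means were 37.7 ± 11.4 CPM in mutant gonads and 292 ± 10.2 CPM in wild-type gonads (SD, n = 3 each), so the mutant mean was 12.9% of the wild-type mean. The log2 fold change was -2.95 (SE 0.27, adjusted p = 0.000374 by edgeR's quasi-likelihood test), and 5.44% of tested genes had a lower one.

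*ago3b* (ENSDARG00000063079) had 20.9, 33.2 and 24.7 CPM in mutant samples, against 70.5, 95.8 and 93.3 CPM in wild-type samples. The genotypes did not overlap, and replicate 1 was the lowest sample in each. The mean was 26.3 ± 6.29 CPM in mutant gonads and 86.5 ± 13.9 CPM in wild-type gonads (SD, n = 3 each), a log2 fold change of -1.72 (SE 0.24, adjusted p = 0.00132 by edgeR's quasi-likelihood test). The calls of *ago4* and *ago3b* held in all 17 alternatives.

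*ago2* (ENSDARG00000061268) encodes the Argonaute that cuts targets in mammals and that also matures miR-451 in zebrafish. It had 29.6, 28.7 and 28.5 CPM in mutant samples, against 37.7, 71.1 and 70.8 CPM in wild-type samples. The mutant samples were nearly alike and lay below all wild-type samples, although wild-type replicate 1 was far closer to them than the other wild-type samples were. Means were 29.0 ± 0.586 CPM in mutant gonads and 59.8 ± 19.2 CPM in wild-type gonads (SD, n = 3 each), with a log2 fold change of -1.05 (SE 0.27, adjusted p = 0.0129 by edgeR's quasi-likelihood test). Without wild-type replicate 1 the log2 fold change was -1.33. The call was lost when libraries were scaled by their totals alone, at a log2 fold change of -0.62, or by upper-quartile factors, at -0.35.

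The remaining Argonaute genes, *ago1* and *ago3a*, are neighbours in the same annotation. *ago1* (ENSDARG00000092644) had 11.4, 16.3 and 10.3 CPM in mutant samples, against 10.2, 18.4 and 18.3 CPM in wild-type samples, a log2 fold change of -0.31 (SE 0.33, adjusted p = 0.420 by edgeR's quasi-likelihood test). *ago3a* (ENSDARG00000059888) had 23.1, 27.5 and 25.6 CPM in mutant samples, against 15.7, 26.5 and 23.6 CPM in wild-type samples, a log2 fold change of 0.21 (SE 0.25, adjusted p = 0.466 by edgeR's quasi-likelihood test). The genotypes overlapped for both genes, and in each the lowest value of all 6 samples was that of wild-type replicate 1. Means were 12.7 ± 3.20 CPM in mutant and 15.6 ± 4.74 CPM in wild-type gonads for *ago1*, and 25.4 ± 2.17 CPM in mutant and 22.0 ± 5.603 CPM in wild-type gonads for *ago3a* (SD, n = 3 each). With upper-quartile factors *ago3a* passed the threshold at a log2 fold change of 0.90, where the median of all tested genes was 0.92.

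Because these Argonaute genes changed to different extents, the make-up of the Argonaute counts differed between genotypes. Shares are of counts that are not corrected for transcript length, so they compare genotypes for a gene and not genes with each other. *ago4* held 37.2%, 21.3% and 27.6% of the Argonaute counts in mutant replicates 1, 2 and 3, with 95% Wilson intervals of 34.4 to 40.1%, 18.7 to 24.1% and 24.8 to 30.6%. In wild-type replicates 1, 2 and 3 it held 69.3%, 57.2% and 58.4%, with intervals of 68.0 to 70.6%, 55.9 to 58.6% and 57.1 to 59.7%, which cover counting error only. Its share was lower in all mutant samples than in any wild-type sample, with a mean difference of -33.0 percentage points. *ago3a*, whose level did not pass the test, held 19.4 ± 2.06% of the counts in mutant gonads and 4.57 ± 0.899% in wild-type gonads (SD, n = 3 each). The summed level of the 5 Argonaute genes was 131 ± 6.82 CPM in mutant and 476 ± 33.4 CPM in wild-type gonads (SD, n = 3 each). A share can thus be higher without a higher level. *ago2*, whose level fell, held 22.1 ± 0.932% in mutant and 12.4 ± 3.29% in wild-type gonads, and *ago1* 9.63 ± 2.18% in mutant and 3.25 ± 0.801% in wild-type gonads. The genotypes did not overlap for these 3 genes, whereas for *ago3b*, with 20.1 ± 4.65% in mutant and 18.1 ± 1.73% in wild-type gonads, they did.

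**Figure D3:**
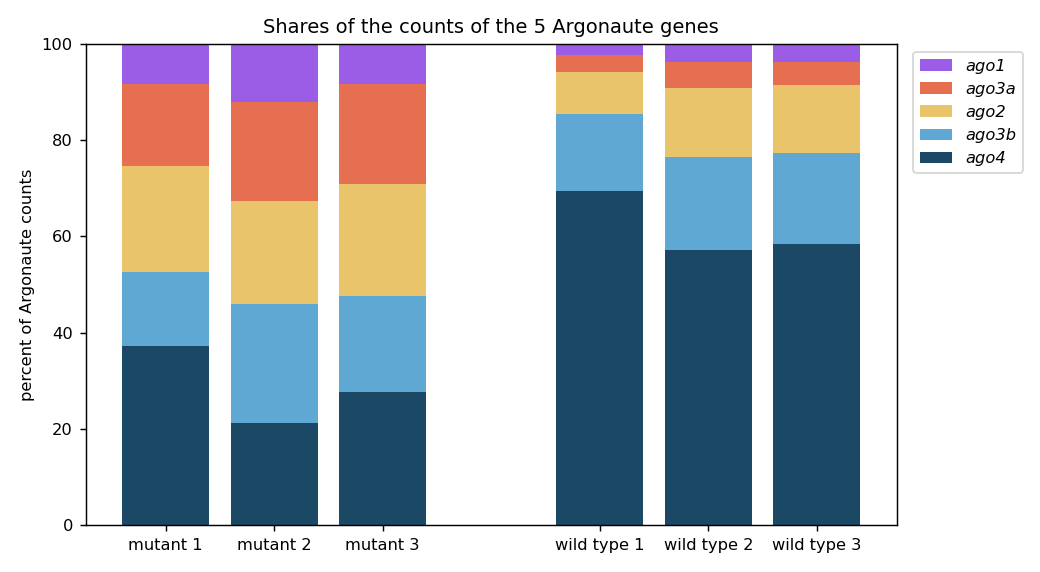
Share of each Argonaute gene in the summed counts of the 5 Argonaute genes (percent), with the 3 mutant samples on the left and the 3 wild-type samples on the right. The *ago4* share is 21.3 to 37.2% in mutant samples and 57.2 to 69.3% in wild-type samples.

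Of the Tnrc6 genes, *tnrc6b* (ENSDARG00000074161) had 150, 135 and 147 CPM in mutant samples, against 207, 200 and 215 CPM in wild-type samples. All mutant samples were lower, with a log2 fold change of -0.53 (SE 0.18, adjusted p = 0.0320 by edgeR's quasi-likelihood test). Like that of *dicer1*, this call was weak: it was lost in 10 of 17 alternatives, among them leaving out mutant replicate 3 or any wild-type replicate, where the log2 fold change was -0.55 to -0.69 and the adjusted p by edgeR's quasi-likelihood test 0.0536 to 0.111. With upper-quartile factors its log2 fold change was 0.17 and not past the threshold.

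In the RefSeq annotation of GRCz12tu the symbol *tnrc6a* stands for a transcribed pseudogene. *tnrc6a* (ENSDARG00000079688) had 167, 123 and 142 CPM in mutant samples, against 137, 212 and 218 CPM in wild-type samples. Here wild-type replicate 1 fell within the mutant range, and the log2 fold change of -0.39 (SE 0.25, adjusted p = 0.205 by edgeR's quasi-likelihood test) did not pass the threshold. Without both first replicates, an alternative chosen after seeing the data, *tnrc6a* passed it at -0.72 with an adjusted p of 0.0493, and over its 17 alternatives the adjusted p ran between 0.0493 and 1. The study's tables and gene names hold further genes of this family, named here after their values were seen. *TNRC6C* (ENSDARG00000076847) had 64.9, 36.9 and 50.96 CPM in mutant samples, against 16.8, 18.1 and 10.6 CPM in wild-type samples, a log2 fold change of 1.75 (SE 0.30, adjusted p = 0.00276 by edgeR's quasi-likelihood test). *tnrc6bb.2* (ENSDARG00000076389), with 3.31, 1.09 and 1.47 CPM in mutant and 5.0, 7.28 and 8.05 CPM in wild-type samples, had a log2 fold change of -1.77 (SE 0.49, adjusted p = 0.0159 by edgeR's quasi-likelihood test). The call of *tnrc6bb.2* was lost without mutant replicate 3 and under scaling by totals alone or by upper-quartile factors. Within the Tnrc6 family *TNRC6C* was thus higher in mutant gonads, the lower calls of *tnrc6bb.2* and *tnrc6b* depended on the setting, and *tnrc6bb.1* (-0.48, SE 0.32, adjusted p = 0.211) and *tnrc6c2* (0.71, SE 0.32, adjusted p = 0.0868) did not pass edgeR's quasi-likelihood test.

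Ratios of counts within a sample do not depend on the scaling between libraries, and 6 of them were compared by a two-sided exact permutation test, for which 3 samples against 3 allow no p below 0.1. The log2 ratio of *dicer1* to *drosha* was 1.2, 1.52 and 1.21 in mutant samples, against -2.20, -1.59 and -1.59 in wild-type samples. Counts are not corrected for transcript length, so the sign of a ratio does not rank its genes. All mutant *dicer1* to *drosha* ratios were above all wild-type ratios, with a difference of 3.11 (exact permutation p = 0.1, 0.15 after Benjamini-Hochberg adjustment over 6 ratios). The difference was 1.97 for *ago3a* to *ago3b*, with means of -0.03 ± 0.22 in mutant and -1.997 ± 0.16 in wild-type gonads (SD, n = 3 each, exact permutation p = 0.1, adjusted 0.15). It was 0.71 for *ago1* to *ago2*, with means of -1.22 ± 0.35 in mutant and -1.92 ± 0.03 in wild-type gonads (SD, n = 3 each, exact permutation p = 0.1, adjusted 0.15), and -2.01 for *ago4* to *ago2*, with 0.34 ± 0.39 in mutant and 2.34 ± 0.57 in wild-type gonads (SD, n = 3 each, exact permutation p = 0.1, adjusted 0.15). In these 4 ratios the genotypes did not overlap, and leaving out any sample kept the sign of each difference. How often ratios of other gene pairs separate the genotypes was not computed. Separation was common for single genes, with all mutant values above in 39.8% and below in 35.4% of tested genes. The ratios also draw on the same counts as the fold changes above.

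For the other pairs, the Microprocessor partners and the Tnrc6 genes, the genotypes overlapped. The log2 ratio of *drosha* to *dgcr8* was -0.86, -1.08 and -0.73 in mutant samples, against -1.29, -1.05 and -1.19 in wild-type samples (difference 0.29, exact permutation p = 0.2, adjusted 0.24). The log2 ratio of *tnrc6a* to *tnrc6b* was 0.16, -0.13 and -0.06 in mutant samples, against -0.60, 0.09 and 0.02 in wild-type samples, with a difference of 0.16 (exact permutation p = 0.8, adjusted 0.8) that became -0.063 without wild-type replicate 1. A design that allows no p below 0.1 does not show that these ratios are alike.

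**Figure D4:**
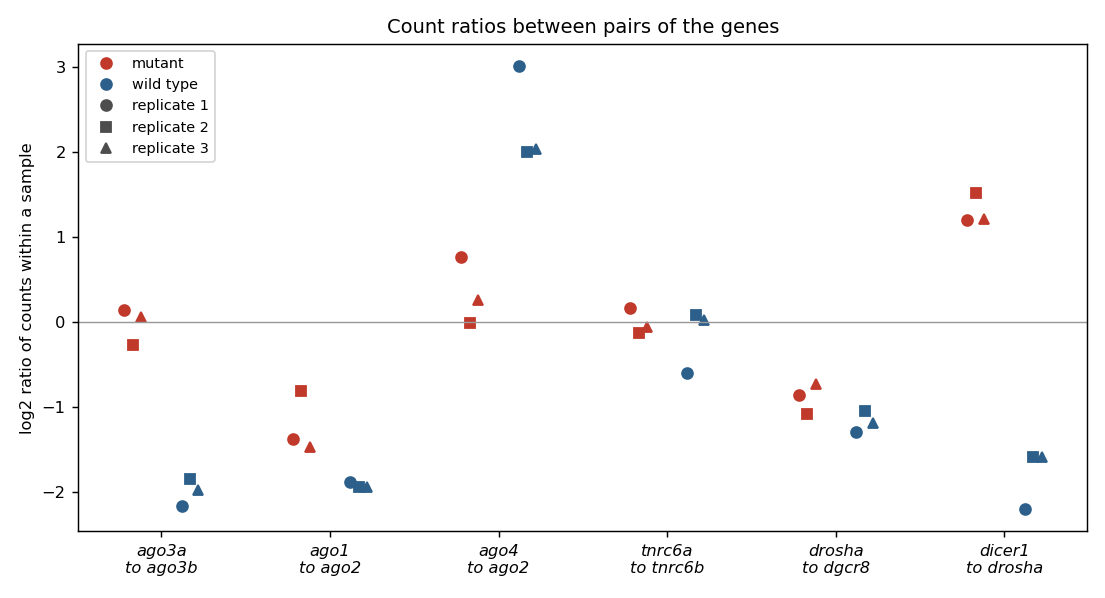
Log2 ratio of the counts of a pair of genes in each sample, with mutant samples (red) left of wild-type samples (blue) for every pair and symbols for the replicate. The genotypes separate for *ago3a* to *ago3b*, *ago1* to *ago2*, *ago4* to *ago2* and *dicer1* to *drosha*, and overlap for *tnrc6a* to *tnrc6b* and *drosha* to *dgcr8*.

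The 10 genes differed in how they behaved in wild-type replicate 1, which had the higher testis somatic, ovarian somatic, spermatid, red blood cell and matrix markers. In wild-type replicate 1, 6 genes (*dicer1*, *ago1*, *ago2*, *ago3a*, *ago3b* and *tnrc6a*) were at 0.53 to 0.75 times the mean of wild-type replicates 2 and 3. The cut at 0.75 was set after seeing the values. The other 4, *drosha*, *dgcr8*, *ago4* and *tnrc6b*, were at 0.95 to 1.08 times that mean. A ratio under 0.75 was found for 18.5% of all tested genes, whose median was 1.1, and the 23 oocyte markers had a median of 1.17 with a range of 0.75 to 1.42. The testis somatic markers had a median of 6.83. The 4 genes at a ratio near 1 include the 3 with the lowest log2 fold changes in mutant gonads, *ago4*, *dgcr8* and *drosha*. Wild-type replicate 1 enters both the ratio and the fold change, so they are not independent, and a link between them was not tested. Without wild-type replicate 1, the log2 fold changes of *ago4*, *dgcr8* and *drosha* were -2.97, -2.68 and -2.44, still the lowest of the 10 genes. In mutant replicate 1, where the oocyte markers had a median of 6.46 times the mean of mutant replicates 2 and 3, the 10 genes were at 0.72 times (*ago3b*) to 1.61 times (*ago4*) that mean. Without both first replicates, the log2 fold changes of *ago4*, *dgcr8* and *drosha* were -3.21, -2.72 and -2.50, each lower than with all samples. Without mutant replicate 2, the sample with the highest sum of liver markers, they were -2.76, -2.60 and -2.23. That fit still held mutant replicate 3, where liver markers summed to 22768.5 CPM, against 1016 CPM in mutant replicate 1.

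Of 15 tested partners in the Microprocessor step and in nuclear export, 8 fell, 1 rose and 6 did not pass the test, with a median log2 fold change of -0.69, whereas 32.0% of all tested genes fell and 37.5% rose, with a median of 0.23. The split depended on the scaling, with 2 lower and 2 higher under totals alone and 5 lower and 3 higher under upper-quartile factors. *ncbp2*, a subunit of the nuclear cap-binding complex, had 12.6 ± 1.12 CPM in mutant and 61.7 ± 3.499 CPM in wild-type gonads (SD, n = 3 each), a log2 fold change of -2.30 (SE 0.18, adjusted p = 0.000302 by edgeR's quasi-likelihood test). *khsrp*, which binds the loops of certain hairpins in mammals, had 124 ± 5.20 CPM in mutant and 552 ± 41.5 CPM in wild-type gonads (SD, n = 3 each), a log2 fold change of -2.16 (SE 0.22, adjusted p = 0.000459 by edgeR's quasi-likelihood test). The riser was *ddx17*, a helicase that joins the Microprocessor in mammals, with 59.8, 50.4 and 57.4 CPM in mutant samples, against 20.7, 13.9 and 10.9 CPM in wild-type samples, a log2 fold change of 1.88 (SE 0.27, adjusted p = 0.00145 by edgeR's quasi-likelihood test). *xpo5*, the exportin that carries hairpins to the cytoplasm, had 14.6, 21.3 and 20.3 CPM in mutant samples, against 24.2, 28.5 and 27.8 CPM in wild-type samples. Its mutant values were all below the wild-type values, but its log2 fold change of -0.52 (SE 0.22, adjusted p = 0.0690) did not pass edgeR's quasi-likelihood test. *srsf3a*, a splicing factor that marks hairpins in human cells, had 9 to 18 counts in mutant and 6 to 11 counts in wild-type samples, with a log2 fold change of 1.1 (SE 0.46, adjusted p = 0.0657 by edgeR's quasi-likelihood test).

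Genes that act with Dicer or load Argonaute showed no common direction, with 3 higher, 1 lower and 6 not past the threshold of 10 tested, and a median log2 fold change of 0.32. Of all tested genes 37.5% were higher and 32.0% lower. Without mutant replicate 2 there were 4 higher and 3 lower, and 2 higher when any of 4 other samples was left out. The call of *adar*, an RNA-editing enzyme and the remaining higher gene, was lost in 5 of the 6 fits that leave out a sample. The gene that fell was *tarbp2*, which encodes the double-stranded RNA-binding partner of Dicer, with 15.3, 18.0 and 14.3 CPM in mutant samples, against 110, 141 and 141 CPM in wild-type samples. Its log2 fold change was -3.04 (SE 0.20, adjusted p = 0.000286 by edgeR's quasi-likelihood test), so it fell while *dicer1* did not. *prkra*, which encodes another partner of Dicer in mammals, had 11.6, 14.3 and 11.1 CPM in mutant samples, against 13.1, 12.9 and 14.4 CPM in wild-type samples, with a log2 fold change of -0.13 (SE 0.22, adjusted p = 0.617 by edgeR's quasi-likelihood test). Among the chaperones that help load Argonaute, *hsp90aa1.2* had 1062 ± 190 CPM in mutant and 176 ± 58.5 CPM in wild-type gonads (SD, n = 3 each), a log2 fold change of 2.59 (SE 0.37, adjusted p = 0.00137 by edgeR's quasi-likelihood test). *hsp90aa1.1*, best known from muscle in zebrafish, had a log2 fold change of 2.03 (SE 0.40, adjusted p = 0.00434 by edgeR's quasi-likelihood test), and the muscle markers summed to 640 to 1516 CPM in mutant and 116 to 145 CPM in wild-type samples. A link between the rise of *hsp90aa1.1* and muscle content was not tested. The chaperone genes *hsp90ab1*, *stip1* and *fkbp4* of this list did not rise past the threshold. Their log2 fold changes were 0.17 (SE 0.54), -0.40 (SE 0.45) and 0.21 (SE 0.50), with adjusted p of 0.787, 0.445 and 0.718 by edgeR's quasi-likelihood test.

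**Figure D5:**
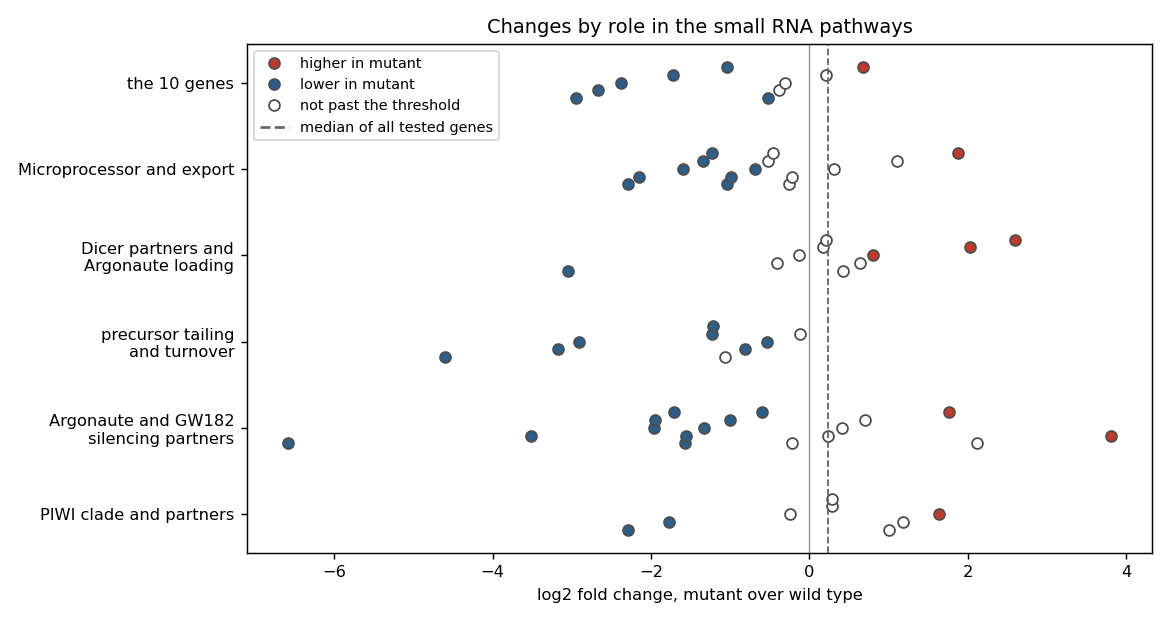
Log2 fold change of mutant over wild type for the 10 genes and for the tested genes of each partner list, grouped by role (rows, with the vertical offset of points for legibility only). Red points are higher and blue points lower in mutant gonads past the threshold, open points are not past it, and the dashed line is the median of all tested genes, 0.23; the turnover list holds 7 blue points of 9 and no red point.

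Genes for the tailing and decay of microRNAs and their precursors fell in 7 of 9 cases, and the other 2 did not pass the test. Of all tested genes 32.0% were lower and 69.5% were called. The median log2 fold change of the list was -1.22 and the highest -0.12. *lin28a*, an RNA-binding protein known for blocking the maturation of let-7, had 8.69, 5.59 and 6.003 CPM in mutant samples, against 138, 183 and 175 CPM in wild-type samples. The mutant mean was 4.09% of the wild-type mean, with a log2 fold change of -4.61 (SE 0.27, adjusted p = 0.000286 by edgeR's quasi-likelihood test). *xrn2*, an exonuclease that works in the nucleus, had 69.3 ± 9.30 CPM in mutant and 628 ± 29.2 CPM in wild-type gonads (SD, n = 3 each), a log2 fold change of -3.18 (SE 0.24, adjusted p = 0.000302 by edgeR's quasi-likelihood test). The 7 lower calls of this list became 3 under scaling by totals alone and 4 under upper-quartile factors, and that of *zswim8*, which acts in target-directed decay of microRNAs in mammals, was lost in 5 of the 6 fits that leave out a sample.

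Downstream of Argonaute and Tnrc6, 10 of 17 tested silencing partners fell, 2 rose and 5 did not pass the test, with a median log2 fold change of -1.01. The 12 called genes of 17 are about the 69.5% called among all tested genes, of which 32.0% were lower and 37.5% higher. *eif4enif1*, a P-body protein that binds eIF4E proteins and represses translation, had 98.8, 65.8 and 83.5 CPM in mutant samples, against 951, 914 and 973 CPM in wild-type samples, a log2 fold change of -3.52 (SE 0.29, adjusted p = 0.000315 by edgeR's quasi-likelihood test). *cnot7*, a deadenylase of the CCR4-NOT complex, had 18.7, 14.7 and 20.7 CPM in mutant samples, against 63.6, 54.9 and 59.09 CPM in wild-type samples, a log2 fold change of -1.71 (SE 0.20, adjusted p = 0.000689 by edgeR's quasi-likelihood test). The risers were low in counts. *mov10b.2*, a relative of the helicase MOV10, had 56, 56 and 58 counts in mutant samples, against 11, 3 and 4 counts in wild-type samples, a log2 fold change of 3.81 (SE 0.53, adjusted p = 0.00126 by edgeR's quasi-likelihood test). *limd1a*, whose human relative links Argonaute to Tnrc6, had 17, 41 and 25 counts in mutant and 6, 16 and 16 counts in wild-type samples, a log2 fold change of 1.77 (SE 0.59, adjusted p = 0.0314 by edgeR's quasi-likelihood test), a call that was lost in 5 of the 6 fits that leave out a sample. With upper-quartile factors 7 genes of this list were higher.

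The PIWI clade is the other branch of the Argonaute family and acts with piRNAs in germ cells. Of 8 tested genes of this list, 1 rose, 2 fell and 5 did not pass the test, with a median log2 fold change of 0.29, and 5 of the 8 genes also stand in the germ cell marker list. Among all tested genes 37.5% rose, 32.0% fell and 69.5% were called, with a median of 0.23, so this list was called less often in the main fit. *piwil1*, whose promoter drives the transgene of these fish, had 1446, 618 and 1413 CPM in mutant samples, against 752, 372 and 413 CPM in wild-type samples, with overlap and a log2 fold change of 1.178 (SE 0.47, adjusted p = 0.0575 by edgeR's quasi-likelihood test). *piwil2* had 200, 77.0 and 180 CPM in mutant samples, against 206, 165 and 172 CPM in wild-type samples, a log2 fold change of -0.25 (SE 0.36, adjusted p = 0.560 by edgeR's quasi-likelihood test). Mutant replicate 2 was the lowest mutant sample for both genes, and without it 4 genes of the list were higher and 2 lower. How often the list was called thus depended on that sample. *ddx4* (vasa), an RNA helicase of germ cells, rose to 442 ± 177 CPM in mutant gonads, against 142 ± 27.9 CPM in wild-type gonads (SD, n = 3 each), with a log2 fold change of 1.64 (SE 0.38, adjusted p = 0.00781 by edgeR's quasi-likelihood test). *henmt1*, which methylates the ends of piRNAs, and *asz1*, a protein of the germ granules, fell, with log2 fold changes of -1.78 (SE 0.26, adjusted p = 0.00144) and -2.29 (SE 0.38, adjusted p = 0.00239) by edgeR's quasi-likelihood test.

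MicroRNA genes themselves were hardly covered, with 2 of 318 that could be tested. Of the 318 microRNA genes in the tables, 187 had 0 counts in all samples and 131 had at least 1 count. *mir202* (ENSDARG00000099807), whose microRNA is known from the gonads of fish, had 41, 19 and 55 counts in mutant samples, against 22, 8 and 8 counts in wild-type samples. Scaled to library size this was 5.10 ± 2.2 CPM in mutant and 1.14 ± 0.741 CPM in wild-type gonads (SD, n = 3 each), a log2 fold change of 2.15 (SE 0.58, adjusted p = 0.0146 by edgeR's quasi-likelihood test), which was lost in 3 of the 6 fits that leave out a sample. *MIR22* (ENSDARG00000083597) had 7, 12 and 13 counts in mutant samples, against 4, 2 and 2 counts in wild-type samples, a log2 fold change of 2.55 (SE 0.55, adjusted p = 0.00631 by edgeR's quasi-likelihood test). Both genes passed the count filter through the mutant samples, where they were high, so the filter favoured a higher call in advance. Among all tested genes 37.5% were higher. Neither value measures the mature microRNA.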

How the data were processed

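Whole gonads were sequenced by the authors in 3 *eif4e1b* mutant and 3 wild-type samples, with RNA purified on columns and stranded libraries depleted of ribosomal RNA. Reads were aligned to GRCz11 by the authors, who deposited unscaled whole-number counts of each gene. The submitters' processing notes name Trim Galore 0.5.0, Bowtie2 2.3.4.1, featureCounts of Subread 1.6.2, DESeq2 1.18.1 and R 3.4.1. The annotation release and the settings for strand and multiple matches are not given in the sources used here.

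Groups came from the labels. Symbols came from a table of gene names (29201 genes) or the study's supplementary ID pairs (29369 genes with either), and RefSeq synonyms placed *ago3b*. The ID used for *tnrc6b* is *tnrc6b* in the study's pairs and *tnrc6ba* in the gene name table. No transcript length or sequence was used, so levels are not compared between genes.

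Genotypes were compared with edgeR 4.0.16 (R 4.3.3) by the two-sided quasi-likelihood test, with TMM factors and the default filter (a count of 10 in enough samples and 15 in total), which left 20091 genes. The Benjamini-Hochberg correction ran over all of these, and calls were made at an adjusted p under 0.05. CPM are counts per 1000000 after TMM scaling. Ratios had 0.5 counts added before the log. Replicates of a genotype differed by more than counting noise (chi-square per degree of freedom of 10.4 to 149), so no pair appeared to be the same library. No label says that replicates of a genotype come from separate families, so p-values measure the spread between these pools. Alternatives were other scalings, DESeq2 1.42.0, limma 3.58.1 (voom), other filters, a stricter call, a replicate block and leaving out samples. Figures were drawn with matplotlib 3.10.9. The model was tested on simulated counts in which few genes changed, in equal numbers up and down, with 1 spread for all genes. That setting is unlike these data, where 69.5% of tested genes were called and cell content shifted.

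The genes and all lists were chosen with earlier results of these data known. Named are the 10 genes, *eif4e1b*, in each partner list the 2 non-overlapping genes with the smallest p in each direction plus *tnrc6c1* (no ID matched), *tnrc6c2*, *xpo5*, *tarbp2*, *prkra*, *piwil1*, *piwil2* and *lin28a*, the microRNA genes with the smallest p, the 3 genes nearest in profile, and top genes of marker lists. The partners *adar*, *hsp90ab1*, *stip1*, *fkbp4*, *zswim8*, *cnot9* and *mov10a* were named outside this rule, with their values known.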

Additional observations from a re-analysis of the deposited data

How the results depend on the processing

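The calls and directions of *drosha*, *dgcr8*, *ago4* and *ago3b* were kept in all 17 alternatives. Over the 10 genes, 144 values kept their side of the threshold, 23 from 3 genes lost the call, 2 gained it and 1 reversed. The *dicer1* call was lost with DESeq2's size factors (log2 fold change 0.62), DESeq2's Wald test (0.62), no filter beyond 1 count in total (0.61), a required absolute log2 fold change of 1 (0.68) and without both first replicates (0.45), and in each fit without a sample (0.45 to 0.77). In those fits no gene of the 10 was higher (0), whereas 2 were with upper-quartile factors, where *ago3a* (0.90) joined *dicer1*. The *tnrc6b* call was lost with library totals alone (-0.078), no filter (-0.58), a required change of 1 (-0.53) and without both first replicates (-0.57), ran between -0.69 and -0.46 without a sample, and was reversed in sign with upper-quartile factors (0.17). *ago2* lost its call with library totals alone (-0.62) and under upper-quartile factors (-0.35), and *tnrc6a* gained it without both first replicates (-0.72) and ran up to -0.28 without a sample. Some values changed sign without a call in either fit. With library totals alone and upper-quartile factors, *tnrc6a* was at 0.074 and 0.31 and *ago1* at 0.046 and 0.39. Without wild-type replicate 1, *ago3a* was at -0.022. Every edgeR fit, the main fit included, assumes a shared spread of a gene in both genotypes. With 2 samples left in a genotype, that spread rests more on the other genotype.

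Scaling moved the median log2 fold change of all tested genes to 0.65 (library totals alone) and 0.92 (upper-quartile factors), against 0.23 with TMM. Lower calls then numbered 3740 and 4001, and 68.8% and 71.1% of calls were higher, against 53.9% with TMM. Among partners, upper-quartile factors turned the log2 fold change of *zswim8* to 0.16, *cnot9* to 0.47 and *mov10a* to 0.094, and that of *fkbp4* ran between -0.57, without mutant replicate 2, and 0.52 when a sample was left out. Lower calls of the Microprocessor list numbered 2 with library totals alone and 5 under upper-quartile factors. Without a sample in turn, the *tnrc6a* to *tnrc6b* difference ran between -0.063 and 0.28, and the number of the 10 genes called higher was 0. The cause of these changes was not tested.

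Same-numbered samples of both genotypes deviated with correlations of 0.12, -0.20 and -0.05, and the other pairs with -0.40 to 0.40. These values show no pairing by replicate number. They cannot exclude that samples were collected in pairs, because cell content also differed between samples. A replicate block took the calls of *dicer1* (0.71, adjusted p = 0.0653) and *tnrc6b* (-0.53, adjusted p = 0.107 by edgeR's quasi-likelihood test), left 0 of the 10 genes higher, and gave 6625 higher and 5887 lower genes overall.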

Other observations

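By Euclidean distance between centred log2 profiles over the 6 samples, the 3 genes nearest to the median profile of the 10 genes were *ELF2* (distance 0.0969), *CRKL* (0.135) and *STRN4* (0.163), with log2 fold changes of -0.84, -0.80 and -0.83. The nearest of the 10 genes to their own median was *ago2*, at 0.347, and the farthest was *ago4*, at 2.71. The distances are a description over samples of 2 genotypes and say nothing of shared control.

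Counts summed over the 318 microRNA genes were 149, 240 and 169 in mutant replicates 1, 2 and 3, against 97, 28 and 38 in wild-type replicates 1, 2 and 3, although mutant libraries held fewer counts. All mutant sums were above all wild-type sums, and the highest wild-type sum was that of replicate 1. Whether summed counts of other kinds of genes near the floor rose alike was not tested. By another measure, 25652 to 27958 of all genes had a count in mutant samples, against 22937 to 24797 in wild-type samples.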
